A study of Mus musculus with 6 samples.

Results

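Amino acid catabolism and the urea cycle were described through a list of 49 genes that encode enzymes of these pathways, and 34 of them were read in the livers of mice with and without the hepatic insulin receptor. A gene was taken as read where the platform annotation of the array gives its symbol alone to a probe set, a group of short oligonucleotides that detects a transcript. Where several probe sets carry a symbol, the one with the highest mean over all 6 arrays was used, which applied to 7 of the 34 genes. The other 15 genes, *Sds*, *Gls2*, *Gpt*, *Prodh*, *Cth*, *Cbs*, *Kmo*, *Kynu*, *Uroc1*, *Ftcd*, *Amdhd1*, *Haao*, *Pcca*, *Mut* and *Nags*, were not analysed here by these symbols.

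The liver breaks down most amino acids that the diet supplies beyond the needs of protein synthesis. Their amino groups are moved by aminotransferases to glutamate and aspartate and leave the body as urea, while their carbon skeletons enter gluconeogenesis, ketone body formation or oxidation. Glucagon and glucocorticoids induce several of these enzymes in hepatocytes, and insulin opposes both hormones, so that a liver unable to respond to insulin is a natural place to measure them.

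All mice carried floxed alleles of the insulin receptor gene (IR flox/flox) on a mixed 129/sv, C57BL/6, FVB and DBA background. Liver Insulin Receptor Knockout (LIRKO) mice were albumin:CRE +, in which the albumin promoter drives Cre recombinase in hepatocytes, and their Flox littermates were albumin:CRE -. The mice were non-fasted males on chow, aged 2 to 3 months per the labels. RNA of 2 to 3 mice was pooled for each Affymetrix MG-U74A-v2 array, with 3 Flox and 3 LIRKO arrays, and replicate error is therefore that between pools. Values are log2 signals after robust multichip averaging (RMA), and each difference below is LIRKO minus Flox on the log2 scale unless stated otherwise.

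The LIRKO arrays did not form a uniform group. Among the 10% of probe sets with the highest mean signal on Flox, LIRKO 2, LIRKO 3 and LIRKO 1 had median differences from Flox of -1.09, -0.89 and -0.01, whereas over all 12422 probe sets the 3 medians lay between -0.02 and 0.03. Of the 34 members, 24 were read by probe sets of this brightest 10%, so that results are given with all LIRKO arrays and with LIRKO 1 alone. The 8 hepatocyte markers read of 10 listed were all in the brightest 10%, and their summed signal (log2) ranged from 16.04 to 16.11 on Flox and from 15.50 to 16.10 on LIRKO, with LIRKO 1 at 16.10. Signals were summed on the linear scale, so that the brightest markers set most of this value. Singly, the 8 markers differed by -1.88 (*Ttr*) to -0.03 (*Cyp2e1*), with medians of 0.05, -1.02 and -0.86 on LIRKO 1, LIRKO 2 and LIRKO 3. The summed signal of 2 erythroid markers read of 4 listed, *Hba-a1* and *Alas2*, ranged from 12.02 to 12.33 on Flox and from 10.36 to 12.08 on LIRKO. For 5 lymphocyte markers read of 6 the ranges were 9.06 to 9.13 and 9.21 to 9.60, and for 7 other cell type lists the ranges of the groups overlapped. Their part in the results was not tested. The probe set of *Insr*, the targeted gene, read 5.45, 5.22 and 5.38 on Flox 1 to 3 and 5.37, 5.99 and 6.06 on LIRKO 1 to 3. Its place relative to the floxed sequence is unknown, so that it does not check the labels.

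None of the 34 members passed at an adjusted p under 0.05 from limma in either direction, against 0.0564% of all probe sets that were lower and 0.0725% that were higher in LIRKO liver, and none passed with an unequal variance t-test per probe set, run as an alternative. At an unadjusted p under 0.05, 13 members (38.2%) were lower, against 13.5% of all probe sets, and 2 members, *Hpd* and *Got2*, were higher, against 7.43%. All 13 belong to the 24 members whose probe sets are in the brightest 10%, of which they make up 54.2%, against 43.2% of all probe sets of that brightness. The 3 LIRKO arrays lay below all 3 Flox arrays for 8 members, *Arg1*, *Glud1*, *Gstz1*, *Qdpr*, *Tdo2*, *Bhmt*, *Gldc* and *Shmt1*, where 14.9% of all probe sets did so. All of these 8 belong to the 24 bright members, and their share of 33.3% of those 24 was near the 34.4% among the brightest 10% of all probe sets. The LIRKO arrays lay above all Flox arrays for 3 members, *Got1*, *Hpd* and *Mat1a*, against 9.84% of all probe sets. In bulk tissue, fewer hepatocytes and less of a transcript per hepatocyte cannot be told apart. Nor can either be told apart here from the lower readings of bright probe sets in general on LIRKO 2 and LIRKO 3.

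The median difference of the 34 members was -0.53, with a range from -1.66 for *Bhmt* to 1.11 for *Got2*, beside a median of 0.01 over all probe sets and -0.65 over the brightest 10%. The 24 bright members had a median of -0.84 and the 10 dimmer ones a median of -0.06. By array, the members had medians of 0.08 (LIRKO 1), -1.18 (LIRKO 2) and -0.87 (LIRKO 3). On LIRKO 1, 17 members read above every Flox array and 8 below every Flox array, against 24.7% and 30.9% of all probe sets. On all 3 LIRKO arrays, 13 members (38.2%) read below the Flox mean, against 25.4% of all probe sets, and 4 members (11.8%) read above it, against 22.7%. Another 15 members (44.1%) read above it on LIRKO 1 but below it on LIRKO 2 and LIRKO 3, against 15.4% of all probe sets. These patterns were not counted among the brightest 10%, which hold 24 of the members. Of those 1243 probe sets, 588 read above the Flox mean on LIRKO 1. On LIRKO 2 and LIRKO 3, 1114 and 1079 of them read below it.

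**Figure D1:**
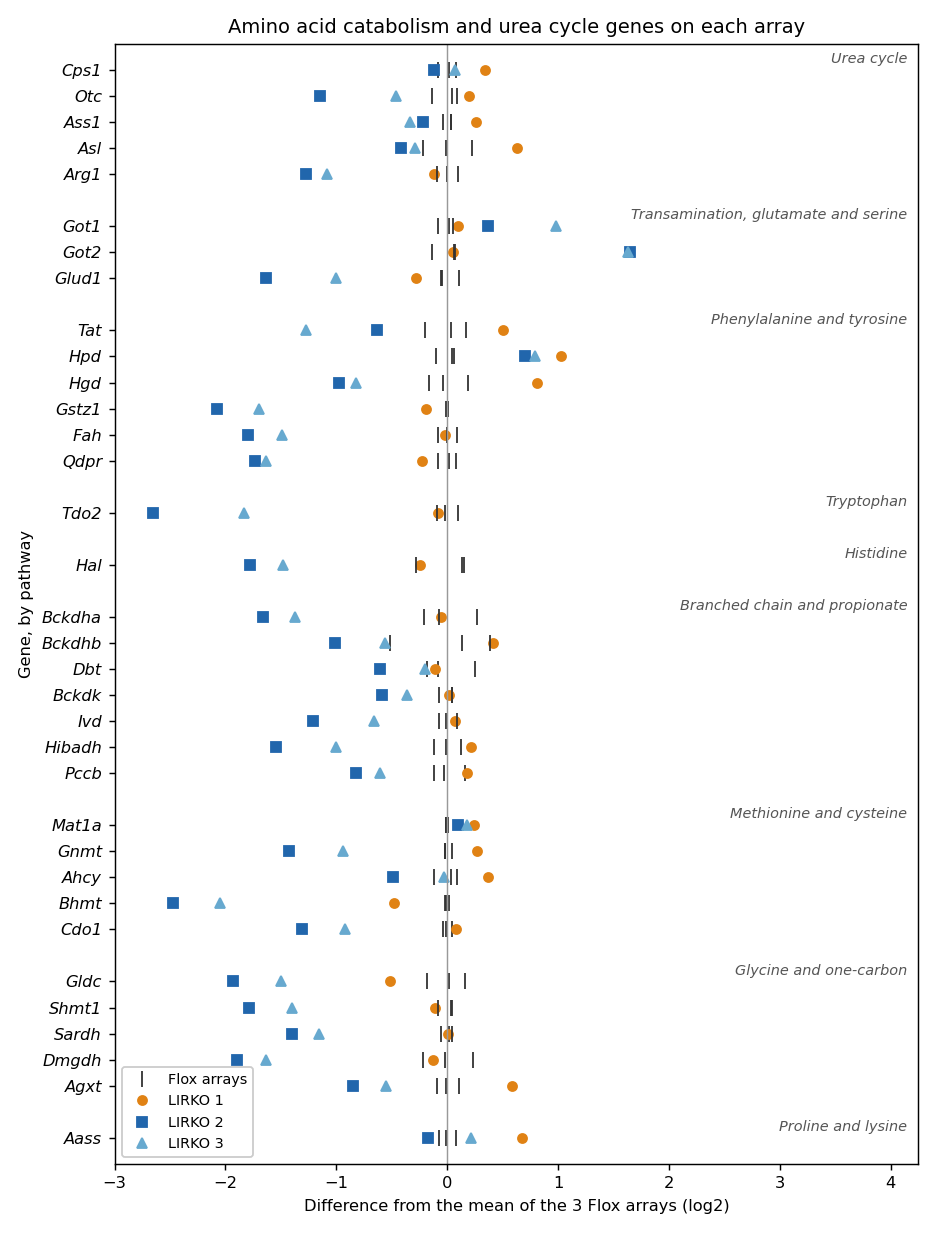
Signal of each array minus the Flox mean (log2, horizontal axis) for the 34 members, grouped by pathway (vertical axis); black ticks are the Flox arrays and coloured symbols are LIRKO 1, LIRKO 2 and LIRKO 3. *Hpd* lies to the right of the Flox arrays on all LIRKO arrays, and *Gldc* and *Bhmt* lie to the left on all of them, while most other members are near or above Flox on LIRKO 1 and below it on LIRKO 2 and LIRKO 3.

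The promoters of *Hpd* and *Gldc* are shown because each had the smallest unadjusted p of the members in its direction, a choice made after their values were seen. Each run holds the 250 bases before the start of the gene, 5′ to 3′ on the gene's strand, from RefSeq on GRCm38.p6, at chr5:123182724-123182973 on the minus strand for *Hpd* and at chr19:30175442-30175691 on the minus strand for *Gldc*.
Hpd: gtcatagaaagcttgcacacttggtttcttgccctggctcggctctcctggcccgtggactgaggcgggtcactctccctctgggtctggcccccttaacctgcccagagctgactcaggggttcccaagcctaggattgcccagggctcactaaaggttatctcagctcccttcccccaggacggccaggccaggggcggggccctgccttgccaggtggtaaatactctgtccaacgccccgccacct
Gldc: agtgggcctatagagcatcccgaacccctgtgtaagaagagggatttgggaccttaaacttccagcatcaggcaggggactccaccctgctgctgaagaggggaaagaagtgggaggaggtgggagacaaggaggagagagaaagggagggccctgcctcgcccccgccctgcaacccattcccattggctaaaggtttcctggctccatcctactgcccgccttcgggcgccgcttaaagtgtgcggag
Neither run holds, on either strand, the letters TGTTTAC (FoxO core), TGTTCT (a half-site of the glucocorticoid receptor) or TGACG (a half-site of the cAMP response element), so that nothing is in capitals. Of the 28 members with a promoter in the reference table, TGTTTAC was found in 3.57% (*Hibadh*), against 3.09% of the promoters of all 27025 genes. TGTTCT was found in 14.3% (*Bckdhb*, *Bckdk*, *Pccb* and *Agxt*), against 16.2%, and TGACG in 10.7% (*Gstz1*, *Shmt1* and *Aass*), against 17.9%. A match describes letters in the window and is not evidence of binding.

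The urea cycle, which turns ammonia into urea in mitochondria and cytosol, was read through 5 of its 6 listed genes, and none passed. Their median difference was -0.10, with 0.26 on LIRKO 1, -0.42 on LIRKO 2 and -0.34 on LIRKO 3, and 4 of the 5 read above every Flox array on LIRKO 1, against 24.7% of all probe sets and 30.1% of the brightest 10%. Of the 5, *Cps1*, *Otc* and *Arg1* are in the brightest 10%. The medians on LIRKO 2 and LIRKO 3 are the values of the dimmer *Asl* and *Ass1*. *Cps1*, which makes carbamoyl phosphate from ammonia in the entry step of the cycle, read 12.93, 12.83 and 12.99 on Flox and 13.25, 12.79 and 12.99 on LIRKO. The difference of 0.10 (95% confidence interval -0.26 to 0.45) was within the spread of the arrays. On LIRKO 2 and LIRKO 3 *Cps1* differed from Flox by -0.12 and 0.07, against the medians of -1.09 and -0.89 for the brightest 10% of probe sets, to which it belongs. *Otc*, which joins carbamoyl phosphate to ornithine, read 11.13, 10.95 and 11.18 on Flox and 11.29, 9.94 and 10.63 on LIRKO, a difference of -0.47 (standard error 0.32, adjusted p = 0.374). It was higher than Flox on LIRKO 1 and lower on the other 2 arrays. *Arg1*, whose product releases urea from arginine, read 11.92, 11.83 and 12.02 on Flox and 11.80, 10.65 and 10.85 on LIRKO. All 3 LIRKO values lay below Flox, with a difference of -0.82 over all arrays (adjusted p = 0.237) and -0.12 on LIRKO 1. *Ass1* and *Asl*, which make and split argininosuccinate, differed by -0.10 and -0.03 over all arrays and by 0.26 and 0.63 on LIRKO 1. The dimmer probe set of *Asl* differed by 0.79.

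Of 6 listed genes of transamination, glutamate and serine 3 were read, and their differences had opposite signs. *Got2*, the mitochondrial aspartate aminotransferase, read 8.82, 9.02 and 9.03 on Flox and 9.0, 10.61 and 10.58 on LIRKO, which gave the highest difference of the list, 1.11 (standard error 0.42, adjusted p = 0.237). The higher values were on LIRKO 2 and LIRKO 3, and LIRKO 1 lay within the Flox range. The other probe set of *Got2* differed by -0.20, so that the direction for the gene rests on the probe set chosen. The name of the chosen probe set ends in _r_at. Others with this suffix among the members and other genes of amino acid metabolism were also higher on LIRKO 2 and LIRKO 3. They differed by 1.10 and 1.11 (the dimmer *Asl* probe set), 1.97 and 1.51 (*Ido1*), 1.26 and 1.35 (*Glul*) and 0.61 and 0.47 (*Phgdh*). The part of the probe set type in these values was not tested. *Glud1*, glutamate dehydrogenase, which frees ammonia from glutamate, read 10.24, 10.07 and 10.08 on Flox and 9.85, 8.51 and 9.13 on LIRKO, a difference of -0.97 (standard error 0.32, adjusted p = 0.237). Its other probe set differed by -0.16. *Got1*, the cytosolic counterpart of *Got2*, had a dim signal of 4.07 on Flox and a difference of 0.48 (adjusted p = 0.251).

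Phenylalanine and tyrosine breakdown was read through all 6 listed genes, with a median of -0.78 over the 3 LIRKO arrays and 0.24 on LIRKO 1. *Hpd*, hydroxyphenylpyruvate dioxygenase, which catalyses the step after transamination of tyrosine, read 7.65, 7.67 and 7.51 on Flox and 8.64, 8.31 and 8.39 on LIRKO. All LIRKO arrays were higher, by 1.03, 0.70 and 0.79. The difference of 0.84 (standard error 0.13, 95% confidence interval 0.52 to 1.15) had the smallest unadjusted p of the members, 4.35e-04, and did not pass after adjustment over all probe sets (adjusted p = 0.156 from limma). *Tat*, tyrosine aminotransferase, which opens the pathway and is induced by glucocorticoids, read 13.13, 12.99 and 12.76 on Flox and 13.46, 12.33 and 11.69 on LIRKO. LIRKO 1 was the highest of the 6 arrays and LIRKO 3 the lowest, so that the difference of -0.46 (standard error 0.42, adjusted p = 0.489) describes none of them. *Hgd*, homogentisate dioxygenase, was likewise higher on LIRKO 1, by 0.81, and lower on LIRKO 2 and LIRKO 3, with differences of -0.98 and -0.82. *Qdpr*, which regenerates the tetrahydrobiopterin used by phenylalanine hydroxylase, read 11.53, 11.43 and 11.59 on Flox and 11.28, 9.79 and 9.89 on LIRKO. Its 3 LIRKO values were all below Flox, with a difference of -1.20 (standard error 0.38, adjusted p = 0.237). *Gstz1* and *Fah*, which isomerize and hydrolyse the last intermediates, differed by -1.32 and -1.10, and on LIRKO 1 by -0.19 and -0.02.

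Tryptophan and histidine breakdown were each read through 1 of 4 listed genes, both entry enzymes. *Tdo2*, tryptophan dioxygenase, which is induced by glucocorticoids, read 13.29, 13.10 and 13.17 on Flox and 13.10, 10.54 and 11.36 on LIRKO, a difference of -1.52 (standard error 0.59, adjusted p = 0.237). LIRKO 1 lay at the edge of the Flox range, and the differences on LIRKO 2 and LIRKO 3 were -2.65 and -1.83. The other probe set of *Tdo2* read 11.09, 11.08 and 11.11 on Flox and 10.51, 8.95 and 9.22 on LIRKO, a difference of -1.53, and on LIRKO 1 it read below every Flox array, with a difference of -0.58. *Hal*, histidine ammonia-lyase, read 10.58, 10.15 and 10.56 on Flox and 10.18, 8.65 and 8.95 on LIRKO. LIRKO 1 lay within the Flox range and the other 2 arrays below it, with a difference of -1.17 (standard error 0.39, adjusted p = 0.237).

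Branched-chain amino acid and propionate genes, read through 7 of 9, were all below the Flox mean on LIRKO 2 and LIRKO 3, and 5 of the 7 were above it on LIRKO 1. Of the 12422 probe sets, 5944 and 6290 were below it on LIRKO 2 and LIRKO 3, and 5659 above it on LIRKO 1. Of the brightest 1243, which hold 3 of the 7, these counts were 1114, 1079 and 588. The differences of the 7 genes ranged from -1.03 to -0.31, with a median of -0.42, and no member had groups that did not overlap. *Bckdha*, a subunit of the branched-chain keto acid dehydrogenase that commits these amino acids to oxidation, read 9.65, 9.17 and 9.31 on Flox and 9.31, 7.71 and 8.01 on LIRKO. LIRKO 1 matched the middle Flox array, and the difference was -1.03 (standard error 0.40, adjusted p = 0.237). *Bckdhb* and *Dbt*, which encode further subunits of the same complex, differed by -0.39 and -0.31, as did *Bckdk*, the kinase that inhibits it, by -0.31. *Ivd*, isovaleryl-CoA dehydrogenase of leucine breakdown, read 8.46, 8.52 and 8.62 on Flox and 8.60, 7.32 and 7.87 on LIRKO, a difference of -0.60 (standard error 0.30, adjusted p = 0.270). Here too LIRKO 1 stood among the Flox arrays. *Hibadh* of valine breakdown and *Pccb*, a subunit of propionyl-CoA carboxylase, differed by -0.78 and -0.42.

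Methionine and cysteine genes, read through 5 of 7, included the lowest difference of the list, that of *Bhmt*. *Bhmt*, betaine-homocysteine methyltransferase, which remakes methionine from homocysteine, read 12.24, 12.21 and 12.20 on Flox and 11.74, 9.75 and 10.17 on LIRKO. The Flox arrays were tightly grouped and all LIRKO arrays lay below them, with differences of -0.48, -2.47 and -2.05 and a mean of -1.66 (standard error 0.47, 95% confidence interval -2.79 to -0.54, adjusted p = 0.237). A dimmer probe set of *Bhmt* differed by 0.07. *Cdo1*, cysteine dioxygenase, read 12.33, 12.25 and 12.28 on Flox and 12.37, 10.98 and 11.37 on LIRKO, a difference of -0.71 (standard error 0.33, adjusted p = 0.252). LIRKO 1 was just above Flox and the other 2 arrays were below it. *Gnmt*, which consumes S-adenosylmethionine, and *Ahcy*, which hydrolyses the product, differed by -0.70 and -0.05, and by 0.27 and 0.37 on LIRKO 1. The other probe sets of *Ahcy* differed by -1.0 and -0.57. *Mat1a*, which makes S-adenosylmethionine in the adult liver, was 0.17 higher, and its 3 LIRKO arrays lay above all Flox arrays (adjusted p = 0.333).

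Glycine and one-carbon genes, all 5 of which were read, had the lowest median of the 6 pathways with more than 1 gene read, -1.10, and 4 of the 5 were lower at an unadjusted p under 0.05. All 5 are in the brightest 10%, where 43.2% of probe sets were lower at this threshold. On LIRKO 1 their median was -0.11. *Gldc*, glycine decarboxylase of the glycine cleavage system, read 9.47, 9.13 and 9.33 on Flox and 8.79, 7.38 and 7.81 on LIRKO. All LIRKO arrays were below all Flox arrays, with values of -0.52, -1.93 and -1.50 from the Flox mean, and the difference was -1.32 (standard error 0.34, 95% confidence interval -2.13 to -0.50, adjusted p = 0.237). *Shmt1*, cytosolic serine hydroxymethyltransferase, read 9.57, 9.56 and 9.45 on Flox and 9.41, 7.74 and 8.12 on LIRKO, a difference of -1.10 (standard error 0.40, adjusted p = 0.237). LIRKO 1 was below Flox by little, and the dimmer probe set of *Shmt1* differed by -0.17. *Dmgdh* and *Sardh*, which oxidize dimethylglycine and sarcosine, differed by -1.22 and -0.85. *Agxt*, which moves the amino group of alanine to glyoxylate, differed by -0.28 over all arrays and was 0.58 higher than Flox on LIRKO 1. For lysine, *Aass*, which catalyses the opening steps of its breakdown, read 9.81, 9.87 and 9.96 on Flox and 10.55, 9.71 and 10.09 on LIRKO. It was highest on LIRKO 1, and the difference over all arrays was 0.24 (standard error 0.21, adjusted p = 0.491).

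**Figure D2:**
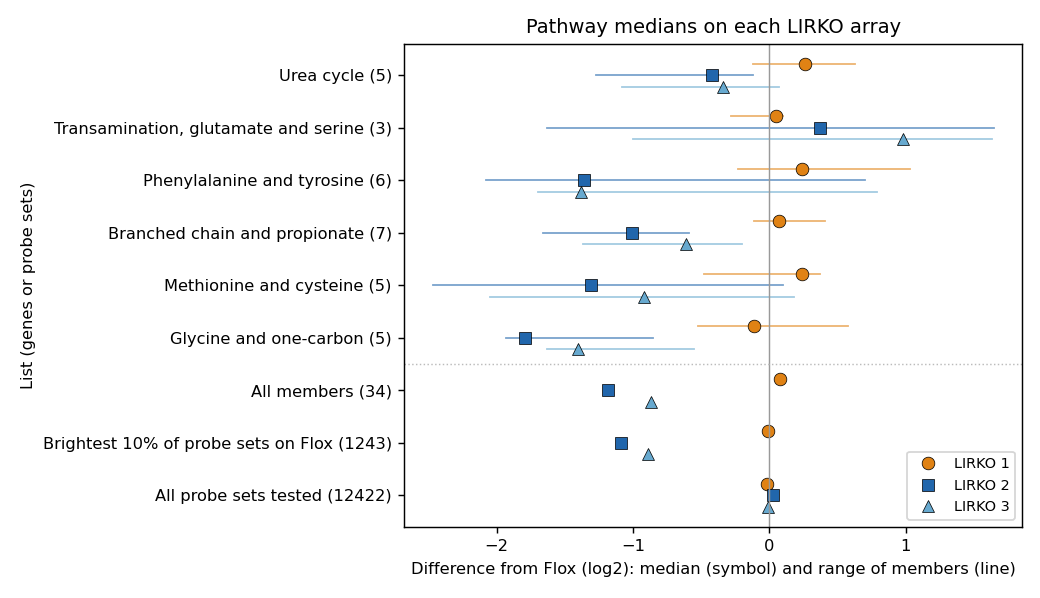
Median difference from the Flox mean (log2, horizontal axis) on each LIRKO array for the pathways with more than 1 gene read and for all members, beside the brightest 10% and all probe sets (vertical axis, with numbers of genes or probe sets); lines span the lowest to the highest member. The glycine and one-carbon median is the lowest on LIRKO 2 and LIRKO 3, at -1.79 and -1.40, and the urea cycle median is -0.42 and -0.34. All 5 glycine and one-carbon genes are in the brightest 10%, against 3 of the 5 urea cycle genes, so that the 2 medians differ in brightness as well as pathway.

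Members that are periportal, the zone of the liver lobule that receives portal blood, or that glucagon or glucocorticoids are known to induce, were counted as further groups that cross the pathways. Of 5 periportal members read of 8, *Cps1*, *Ass1*, *Asl*, *Arg1* and *Hal*, none passed, and the median difference was -0.10 and on LIRKO 1 0.26. All but *Hal* are urea cycle genes. The 8 hormone-induced members read of 11 were *Tat*, *Tdo2*, *Got1* and the 5 urea cycle genes read. None passed, and the median was -0.28, with 0.23 on LIRKO 1. On that array 6 of the 8 read above every Flox array, against 24.7% of all probe sets and 30.1% of the brightest 10%. The 4 urea cycle genes above every Flox array are among these 6, so that both groups largely repeat the urea cycle values. *Tat* and *Tdo2*, which both respond to glucocorticoids, differed on LIRKO 1 by 0.50 and -0.08.

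Because the difference from Flox varied with brightness on LIRKO 2 and LIRKO 3, each member was also set against the 200 probe sets nearest to it in mean Flox signal, a description added after seeing the data. Relative to these neighbours the median of the members was -0.06. On all 3 LIRKO arrays, 11 members lay below their neighbours, *Glud1*, *Gstz1*, *Qdpr*, *Tdo2*, *Hal*, *Bckdha*, *Dbt*, *Bhmt*, *Gldc*, *Shmt1* and *Dmgdh*. Another 12 lay above them on all 3, *Cps1*, *Otc*, *Ass1*, *Got1*, *Got2*, *Hpd*, *Hgd*, *Mat1a*, *Ahcy*, *Cdo1*, *Agxt* and *Aass*, and 11 were mixed. Over all 12422 probe sets, 3070 lay below and 3027 above their neighbours on all 3 arrays. *Cps1* was above its neighbours by 0.36, 1.30 and 1.24, and *Gldc* stood from its neighbours by -0.51, -1.14 and -0.84. *Cps1* is near the top of the signal range, so that most of its 200 neighbours were dimmer. Probe sets brighter still went both ways on LIRKO 2 and LIRKO 3. *Alb* stood from its neighbours by 1.20 and 0.99, *Cyp2e1* by 1.10 and 1.34 and *Tdo2* by -1.25 and -0.68. Urea cycle genes read above their neighbours on all arrays for 3 of 5, and glycine and one-carbon genes below theirs for 3 of 5.

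**Figure D3:**
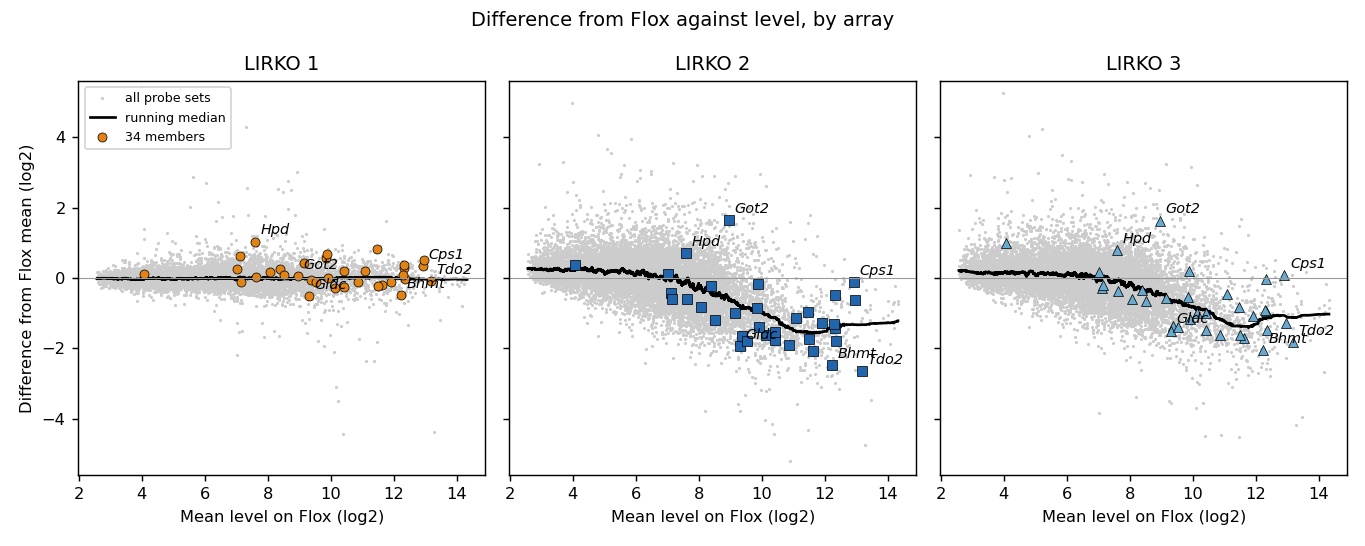
Difference from the Flox mean (log2, vertical axis) against the mean Flox signal (log2, horizontal axis), with 1 panel for each LIRKO array; grey points are all probe sets, the black line is their running median and large symbols are the 34 members. The line is flat on LIRKO 1 and drops among bright probe sets on LIRKO 2 and LIRKO 3, where *Hpd*, *Got2* and *Cps1* stand above it and *Bhmt* and *Tdo2* below it.

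The balance of directions in the list differed between normalizations. With the deposited values 28 of 34 members read lower, with median centring also 28, with quantile normalization applied again 23 and with cyclic loess 19. On LIRKO 1 alone, with the deposited values, 13 read lower, while the median over all probe sets stayed between -0.02 and 0.01. *Hpd* was the only member to pass after quantile normalization, after cyclic loess or on LIRKO 1 alone. It was 0.97 higher after quantile normalization (adjusted p = 0.0277, with 0.185% of all probe sets called), 1.00 higher after cyclic loess (adjusted p = 0.0182, with 0.322% called) and 1.03 higher on LIRKO 1 alone (adjusted p = 0.00905, with 0.725% called). The last value takes the spread from the Flox arrays and has no replicate check. Over all alternatives but array weights, whose estimation did not converge, the adjusted p of *Hpd* ranged from 5.97e-04 without LIRKO 1 to 0.545 without LIRKO 3. *Tat* turned from -0.46 to 0.55 after cyclic loess (adjusted p = 0.224), and *Cps1* moved from 0.10 to 1.15 (adjusted p = 0.212). *Gldc* and *Bhmt* kept their sign, at -1.02 and -0.87 after cyclic loess. Without LIRKO 1, 24 members passed as lower and 3 as higher, in a comparison where 49.1% of all probe sets passed.

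**Figure D4:**
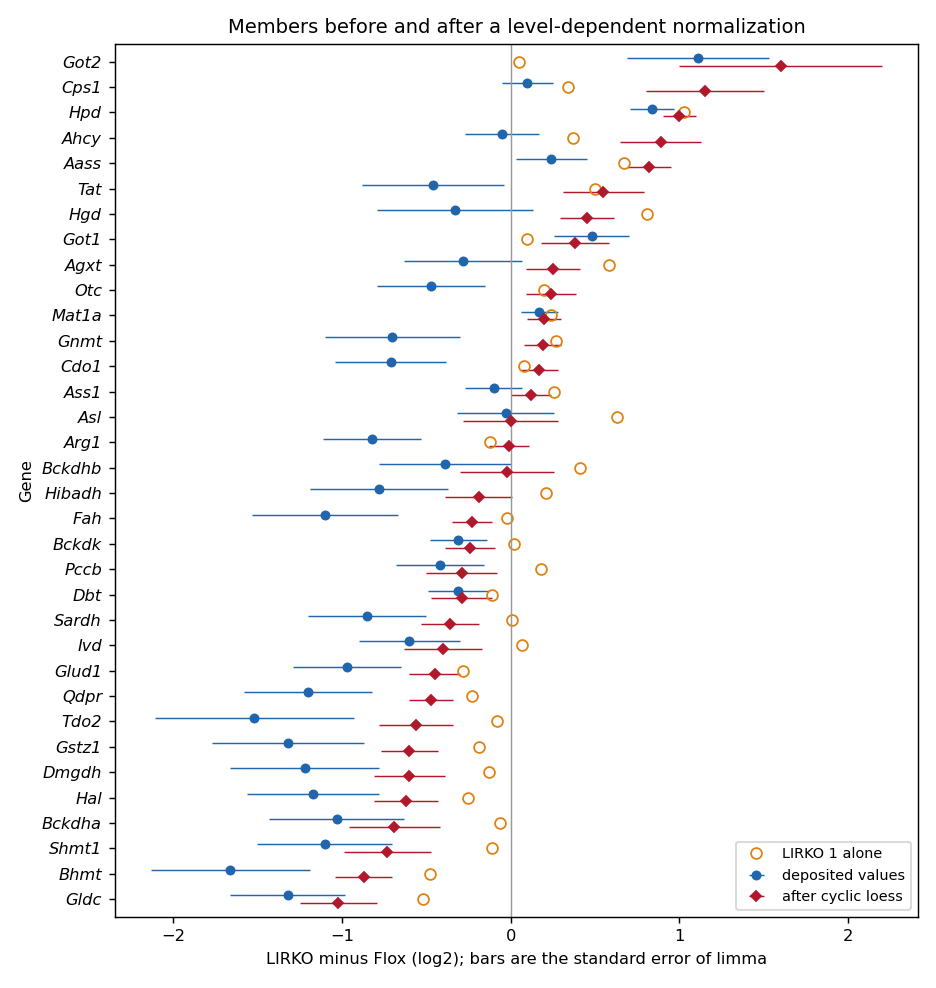
Difference between LIRKO and Flox (log2, horizontal axis) of each member (vertical axis) with the deposited values (blue circles) and after cyclic loess (red diamonds), with bars for the standard error of limma, and on LIRKO 1 alone (open circles); members are ordered by the value after cyclic loess. *Hpd* changes little between the 3, at 0.84, 1.00 and 1.03, while *Cps1*, *Tat* and *Ahcy* move upward after cyclic loess.

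Of 46 other genes of amino acid metabolism that were read, none passed either, 17 were lower and 3 were higher at an unadjusted p under 0.05, against 13.5% and 7.43% of all probe sets, and the median difference was -0.49. Of these 46 genes, 17 were in the brightest 10%, where 43.2% of probe sets were lower at this threshold. These are not the same 17 as the lower genes. Of the bright genes, *Pcbd1*, *Oat*, *Slc25a15*, *Sqor* and *Gcdh* were not lower at this threshold, and all others were. Of the lower genes, *Ddc*, *Aadat*, *Odc1*, *Bhmt2* and *Aldh18a1* were outside the brightest 10%. Among the 46, the 5 genes with the smallest unadjusted p were all lower, and in each of them LIRKO 1 was below every Flox array (adjusted p = 0.237 from limma for each). Choice by a p over all 3 LIRKO arrays favours genes that are low on LIRKO 1 too, so that this array is not a separate check. *Csad*, which makes the taurine precursor hypotaurine, differed by -1.44, and *Ethe1*, which takes part in the mitochondrial oxidation of sulfide, by -1.39. *Gamt*, which makes creatine, differed by -1.49, *Grhpr*, which reduces glyoxylate and was read by a probe set whose suffix marks a sequence family, by -1.14, and *Gclc*, a subunit of the enzyme that starts glutathione synthesis, by -0.48. On LIRKO 1 alone *Kyat3*, a kynurenine aminotransferase, read 1.06 higher (adjusted p = 0.0215, with the spread of the Flox arrays, no replicate check and 0.725% of all probe sets called), and over all 3 LIRKO arrays its difference was 0.50 (adjusted p = 0.273). None of 11 regulators of amino acid catabolism passed. *Ppara*, a nuclear receptor of the fasting response, read 8.71, 9.02 and 9.24 on Flox and 8.19, 8.0 and 8.01 on LIRKO, a difference of -0.93 (standard error 0.16, adjusted p = 0.223). It was below all Flox arrays on every LIRKO array, LIRKO 1 included. *Gcgr*, the glucagon receptor, differed by -1.08 and by -0.18 on LIRKO 1, *Cebpa*, which encodes a hepatocyte transcription factor, by -1.16 and -0.33, and *Nr1h4*, the bile acid receptor, by -0.63 and -0.25. *Ppargc1a*, a coactivator of gluconeogenesis, had a dim signal of 4.04 on Flox and was 0.46 higher with no overlap between groups (adjusted p = 0.237).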

How the data were processed

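Liver RNA of 3 Flox and 3 LIRKO pools was read on Affymetrix MG-U74A-v2 chips. The authors processed the images in R with affy and limma and deposited log2 signals after RMA. The sources used here do not state whether the 6 arrays entered RMA as a single set. Values were used as deposited. The labels name no batch, and where pools come from separate mice the p-values measure the spread between pools. Of 12488 probe sets, 66 array controls were left out and 12422 were tested, dim ones included. In the platform annotation 10833 of these carry 1 gene symbol, 396 several and 1193 none.

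Differences between LIRKO and Flox were tested with limma 3.58.1 in R 4.3.3 (lmFit, then eBayes, at their defaults), with Benjamini-Hochberg adjustment over all probe sets and a threshold of 0.05. The test was tried on simulated data first. Sample numbers were not taken to pair the arrays in the main test. Correlations of deviations from group means across probe sets were 0.32, 0.40 and 0.09 for same-numbered arrays. For arrays with different numbers they ranged from -0.37 to 0.17, so that a pairing remains possible, and the sample number was used as a block in an alternative. Values on each array are given for members past the threshold, for the 2 with the smallest unadjusted p in each pathway and for regulated entry steps. The members, pathways and lists were chosen with earlier results of these data known. Alternatives were 3 normalizations between arrays, a minimum mean log2 signal of 6, an intensity trend, array weights, the methods' unequal variance t-test (named there for group comparisons in general, with limma for the arrays), the sample number as a block, averaging the probe sets of a gene, symbols updated by Entrez ID and leaving out arrays. Promoters came from RefSeq. Figures used Python 3.11.15, numpy 2.4.6, pandas 2.3.3 and matplotlib 3.10.9.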

Additional observations from a re-analysis of the deposited data

How the results depend on the processing

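None of the 34 members passed with the deposited values, and this held under median centring, the filter on dim probe sets, the intensity trend, averaging the probe sets of a gene, updated symbols, the methods' t-test and the sample number as a replicate block, which gave 11 probe sets and 0 members called. With quantile normalization 1 member passed, with cyclic loess 1, and with LIRKO 2 and LIRKO 3 left out 1, each time *Hpd*. Leaving out 1 array at a time gave 0 to 27 members and 0 to 35 of the 46 other genes of amino acid metabolism, where the highest counts came without LIRKO 1 and every other omission gave 0. With LIRKO 2 and LIRKO 3 left out 1 other gene passed. Array weights called 32 members, 38 other genes and 8694 probe sets, but their estimation did not converge, so that nothing is read from them.

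Over all 12422 probe sets 16 passed. The count was 40 with cyclic loess, 90 with LIRKO 2 and LIRKO 3 left out, 0 with the methods' t-test (728 at an unadjusted p under 0.05, against 2602 with limma), and 2 to 6095 with 1 array left out, the lowest without LIRKO 2 and the highest without LIRKO 1. The cause was not tested. Among the 17 members with values on each array, signs turned in 3 after cyclic loess, in 1 after quantile normalization, in 1 without LIRKO 1 and in 4 with LIRKO 2 and LIRKO 3 left out, and none of these values passed. The median of the members ranged from -0.94 without LIRKO 1 to 0.08 on LIRKO 1 alone. The number of arrays, 3 per group, limits the precision.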

Other observations

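The platform annotation names the gene of 1 further member, *Mut*, by its newer symbol *Mmut*, and it was therefore kept out of the 34. *Mmut*, methylmalonyl-CoA mutase, which completes the breakdown of propionate, read 8.34, 8.33 and 8.36 on Flox and 8.71, 8.38 and 8.55 on LIRKO. All LIRKO arrays were above all Flox arrays, with a difference of 0.21 (standard error 0.12, adjusted p = 0.326 from limma). The upstream enzyme of the same route, propionyl-CoA carboxylase, was read through *Pccb*, which differed by -0.42 and was higher than Flox on LIRKO 1, by 0.18.

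Probe sets of 1 gene did not always give the same difference. For *Bhmt* they gave -1.66 and 0.07, for *Shmt1* -1.10 and -0.17, for *Glud1* -0.97 and -0.16, for *Got2* 1.11 and -0.20, for *Asl* -0.03 and 0.79 and for *Ahcy* -0.05, -1.0 and -0.57. For *Tdo2* they gave -1.52 and -1.53. The brightest probe set gave the lower value in *Bhmt*, *Shmt1*, *Glud1* and *Asl* and the higher value in *Got2* and *Ahcy*.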
